A study of Bos taurus with 12 samples.

Results

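Fat from between the muscle fibres was set against fat from under the skin in steers of 1 breed, Japanese Black (JB). All 3 intramuscular fat (IMF) samples and all 3 subcutaneous fat (SCF) samples of that breed were taken, which is 6 of the 12 samples of the series. The other 6 came from Holstein (HS) steers, 3 of each depot, and share the normalization, the filter on dim probe sets and the estimate of spread behind every test, while their depot difference is given only at the end. All steers were fed an energy-rich diet, and each sample was hybridised to 1 Affymetrix bovine array as biotin-labelled cRNA made from total RNA. The labels name no separate animals and do not say whether both depots came from the same steers, so the p-values cover only how far these samples spread, and some of that spread may be technical. The comparison ran over all 24016 probe sets that are not array controls. Of these, the 7205 dimmest by their mean were dropped and 16811 were tested. Genes were then grouped by lists into muscle fibre, fat, vessel, immune, matrix and other classes. The lists were chosen with earlier results of these data known.

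Intramuscular fat is the fat that forms marbling in beef. It develops from progenitors in the connective tissue between muscle fibres and bundles, and a dissected piece can carry fibres, tendon-like septa, vessels and nerves beside its adipocytes. Subcutaneous fat lies between skin and muscle. Adipose tissue of either kind holds adipocytes, which make and store triacylglycerol, and a stromal and vascular fraction of progenitors, endothelial cells, pericytes, macrophages and lymphocytes.

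Signals are the linear intensities that the authors deposited. Differences are given as IMF minus SCF on the log2(signal + 16) scale after quantile normalization, which understates the change of dim genes, with the standard error (SE) of the fit. A probe set was called where limma's adjusted p (Benjamini-Hochberg, over all 16811) was below 0.05. The JB arrays had median signals of 84.26 to 88.28 and each correlated with the others of its group at 0.944 to 0.962 on average. FABP4, the fatty acid carrier of adipocytes, was bright in every sample, at 15044, 15285 and 11591 in IMF and 15982, 15400 and 16900 in SCF. This 1 marker does not show equal fat content. The 85 tested genes of the fat lists summed to 191120, 239783 and 120254 in IMF and 293380, 304639 and 243938 in SCF. Sample IMF 2 lay nearest to the SCF samples, with a mean correlation of 0.912 to them against 0.863 for IMF 1 and 0.833 for IMF 3. Some 3′ to 5′ ratios of the array's control probe sets, which are read as signs of RNA integrity, differed between the depots. That of actin was 1.72, 2.92 and 2.81 in IMF and 45.8, 4.63 and 37.2 in SCF, and that of ef1a was 0.814, 0.771 and 0.832 in IMF and 0.686, 0.633 and 0.557 in SCF, so SCF was higher in the first and lower in the second without overlap. The gapd ratios overlapped, at 1.29 to 1.97 in IMF and 1.87 to 2.19 in SCF. Whether the actin ratio reflects RNA integrity was not tested, nor was the part of these ratios in the results.

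Skeletal muscle transcripts made up the largest differences between the depots, and immune transcripts most of those listed genes that were lower in IMF. Of the 16811 probe sets, 516 (3.07%) were called, 362 higher in IMF (2.15%) and 154 lower (0.916%). IMF and SCF samples did not overlap at any of the 516, whereas 5086 of all tested probe sets (30.3%) had no overlap. Of the 362 increases, 276 exceeded 4-fold and 100 exceeded 16-fold; of the 154 decreases, 55 exceeded 4-fold and 2 exceeded 16-fold. The median difference over all tested probe sets was −0.06. Counted by gene, 199 named genes were higher and 107 lower, with 1 gene, EED, in both sets, since 20 tested probe sets are annotated to it. The higher genes held 57 of the muscle fibre lists, 8 of the vessel lists, 4 of the matrix lists and 1 of the fat lists, and none of the immune lists. The lower genes held 25 of the immune lists, 2 of the fat lists, 1 of the vessel lists and none of the muscle fibre or matrix lists.

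The number of calls depended on the samples in the fit. It was 1039 (680 higher, 359 lower) when the 6 JB samples were normalized and fitted alone. Within the full fit it was 230 (188 higher, 42 lower) without IMF 1, 712 (449 and 263) without IMF 2, 218 (182 and 36) without IMF 3, 407 (251 and 156) without SCF 4, 258 (214 and 44) without SCF 5 and 245 (209 and 36) without SCF 6. With array weights, which give the more variable arrays less influence, 4340 were called, 1908 higher and 2432 lower, so 44.0% were higher against 70.2% in the unweighted fit.

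**Figure D1:**
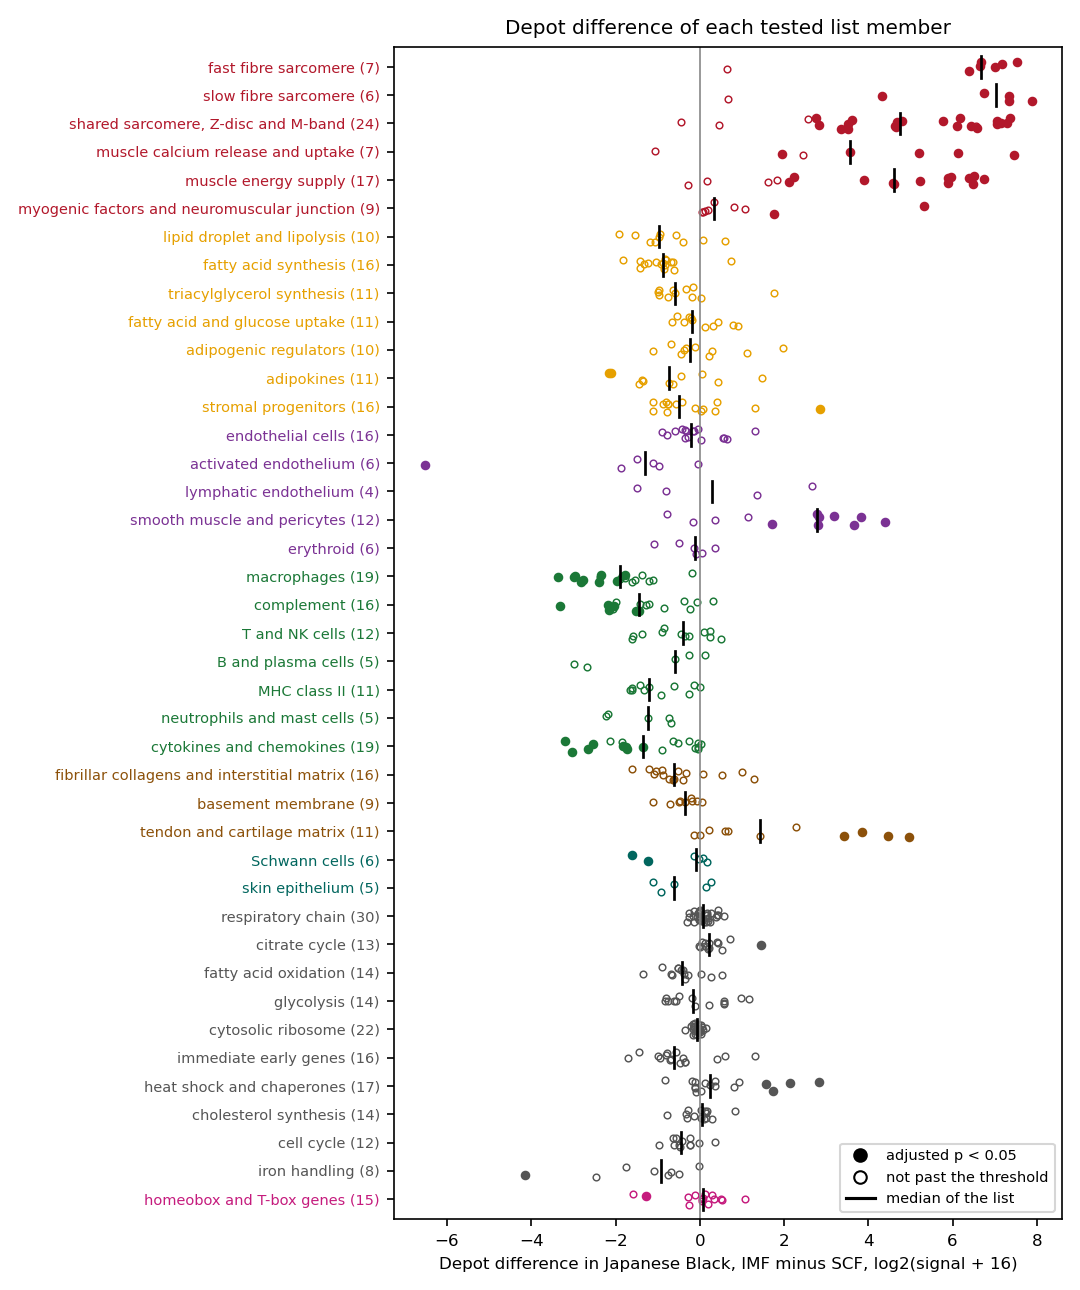
Depot difference in Japanese Black (IMF minus SCF, log2 of signal + 16, horizontal axis) of each tested gene of each list, 1 point per gene through its brightest probe set, with the median of each list. The muscle fibre lists lie to the right, with a family median of 4.67, and the macrophage list lies to the left, with a median of −1.89.

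Most muscle fibre genes tested were called higher in IMF. Counts and medians of lists take each gene through its brightest probe set, while for the 8 largest increases on the muscle lists the probe set that changed most is shown. By the brightest probe set, 183 of all 7808 named genes (2.34%) were called higher and 100 (1.28%) lower, with a median difference of −0.11 and 4765 of the 7808 differences negative. Of 124 muscle fibre genes listed, 70 were tested, and 51 of these were called higher and none lower. Their median difference was 4.67. In RNA of whole tissue, fewer cells of a type and less RNA per cell cannot be told apart. The summed signal of the 70 was 319734, 196672 and 311846 in IMF and 31391, 25886 and 34807 in SCF, so that IMF 2 was lowest among the IMF samples. The count of higher genes was 41 to 52 when any 1 JB sample was left out.

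Among contractile proteins, MYH1, the myosin heavy chain of fast 2X fibres, showed the largest increase. Through the probe set with that change, its signals were 14204, 6956 and 14552 in IMF and 0.01, 0.04 and 18.8 in SCF. The difference was 9.10 ± 0.41 (SE), or 550-fold, with an adjusted p of 3.65e-07. Because the SCF signals lay near 0, the size rests on the pseudocount, and it was 12.03 with a pseudocount of 1. The slow fibre genes behaved alike. MYL2, the regulatory light chain of slow fibres and of the heart, gave 14545, 7526 and 13725 in IMF and 0.02, 9.65 and 289 in SCF (difference 7.88 ± 0.84, adjusted p = 2.10e-04). TNNT1, slow troponin T, gave 8589, 3884 and 7457 in IMF and 0.03, 0 and 181 in SCF (difference 7.34 ± 1.04, adjusted p = 0.00184). SCF 6 was the highest of the SCF samples in all 3 genes, and it stayed far below each IMF sample. In the same sample 1 probe set of MYH7, the slow myosin heavy chain, reached 253 where SCF 4 and SCF 5 were at 0.01 and 0.05, and every IMF sample lay far above these (difference 7.61), but the brightest MYH7 probe set differed by 0.68 and was not called. The median level of the slow fibre list was 12.61, 11.97 and 12.55 in IMF and 4.31, 4.48 and 7.86 in SCF, and that of the fast list 13.21, 13.08 and 13.11 in IMF and 5.53, 5.29 and 8.21 in SCF, in log2 units.

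Both fibre types had genes called higher. Of 7 fast fibre genes tested, 6 were called higher (median difference 6.68), among them TNNI2 and TNNT3, fast troponins I and T, MYL1, a fast light chain, and ACTN3, the fast fibre α-actinin, with differences of 7.54, 7.01, 7.18 and 6.40. Of 6 slow fibre genes, 5 were called higher (median 7.04), including MYL3 at 4.32 and MYOZ2, a calcineurin-binding Z-disc protein, at 6.74. Of 24 genes for the shared sarcomere, Z-disc and M-band, 20 were called higher (median 4.74). The smallest p-values there belonged to MYPN (myopalladin, difference 6.17 ± 0.28), MYOZ1 (6.44 ± 0.47), TMOD4 (a cap of the thin filament's pointed end, 5.78 ± 0.46) and MYOT (myotilin, 7.30 ± 0.59). ANKRD1, a stress-responsive ankyrin repeat protein that binds titin, differed by 7.36 ± 0.85.

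Of 7 genes of calcium release and uptake tested, 5 were called higher, and 1 of the others was negative, with a median difference of 3.57. ATP2A1, the calcium pump of the fast sarcoplasmic reticulum, differed by 5.20 ± 0.29 (adjusted p = 3.18e-06). SLN, sarcolipin, which binds and inhibits that pump, gave signals of 7192, 5903 and 8127 in IMF and 14.1, 3.54 and 83.9 in SCF (difference 7.45 ± 0.48). JPH1, junctophilin 1, which ties the transverse tubule to the reticulum, differed by 6.12, and HRC, a calcium-binding protein of the reticulum, by 3.57. For energy supply, 13 of 17 genes were called higher (median 4.61). NMRK2, a kinase of the NAD salvage route in muscle, gave 835, 702 and 1709 in IMF and 0, 0.01 and 0.01 in SCF, which is a signal at or near 0 in every SCF sample (difference 5.89 ± 0.45). UCP3, a mitochondrial carrier of muscle, differed by 6.39, PFKM, muscle phosphofructokinase, by 4.58 and ENO3, muscle enolase, by 5.24.

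The regulators of the muscle lineage had a smaller median difference than the fibre proteins. Of 9 myogenic factors and neuromuscular junction genes tested, 2 were called higher, and the median difference was 0.34, which ranged from 0.20 to 0.94 over the alternative settings. MYF6, the myogenic factor of mature fibres, gave 1582, 505 and 987 in IMF and 5.23, 0.42 and 15.3 in SCF (difference 5.33 ± 0.58, adjusted p = 2.35e-04). CHRNB1, a subunit of the muscle acetylcholine receptor, differed by 1.75 ± 0.34 (adjusted p = 0.0143), a call lost without IMF 1, without IMF 3 or without SCF 6, with adjusted p-values up to 0.0932. CHRNA1, another subunit, differed by 1.06 ± 0.32 (adjusted p = 0.123). MYOG, myogenin, which drives the fusion of myoblasts and was named after its value was seen, differed by 0.20 ± 0.68 (adjusted p = 0.965).

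The brightest probe set did not always speak for its gene. Of 131 listed genes with several probe sets, 8 were not called through the brightest one but were through another: C3, CKM, COX8B, MYH7, MYL11, PDLIM3, SERPING1 and STAC3. For MYL11, the fast regulatory light chain, one probe set differed by 7.38 and the brightest by 0.66. For MYH7 these values were 7.61 and 0.68. For MYH1 the brightest probe set differed by 6.64 ± 1.31 and was called as well. ACTA1, the skeletal muscle actin, gave 16354, 14944 and 15221 in IMF and 57.2, 33.8 and 1462 in SCF and a difference of 6.55 ± 1.78, and it did not pass the test (adjusted p = 0.0787) although the depots did not overlap. Its adjusted p was 0.0194 when only the JB samples were normalized and fitted. In HS SCF its signals were 6.95, 7292 and 26.3, with SCF 5 the high one, and these samples share the estimate of spread. Their part in the missed call was not tested.

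**Figure D2:**
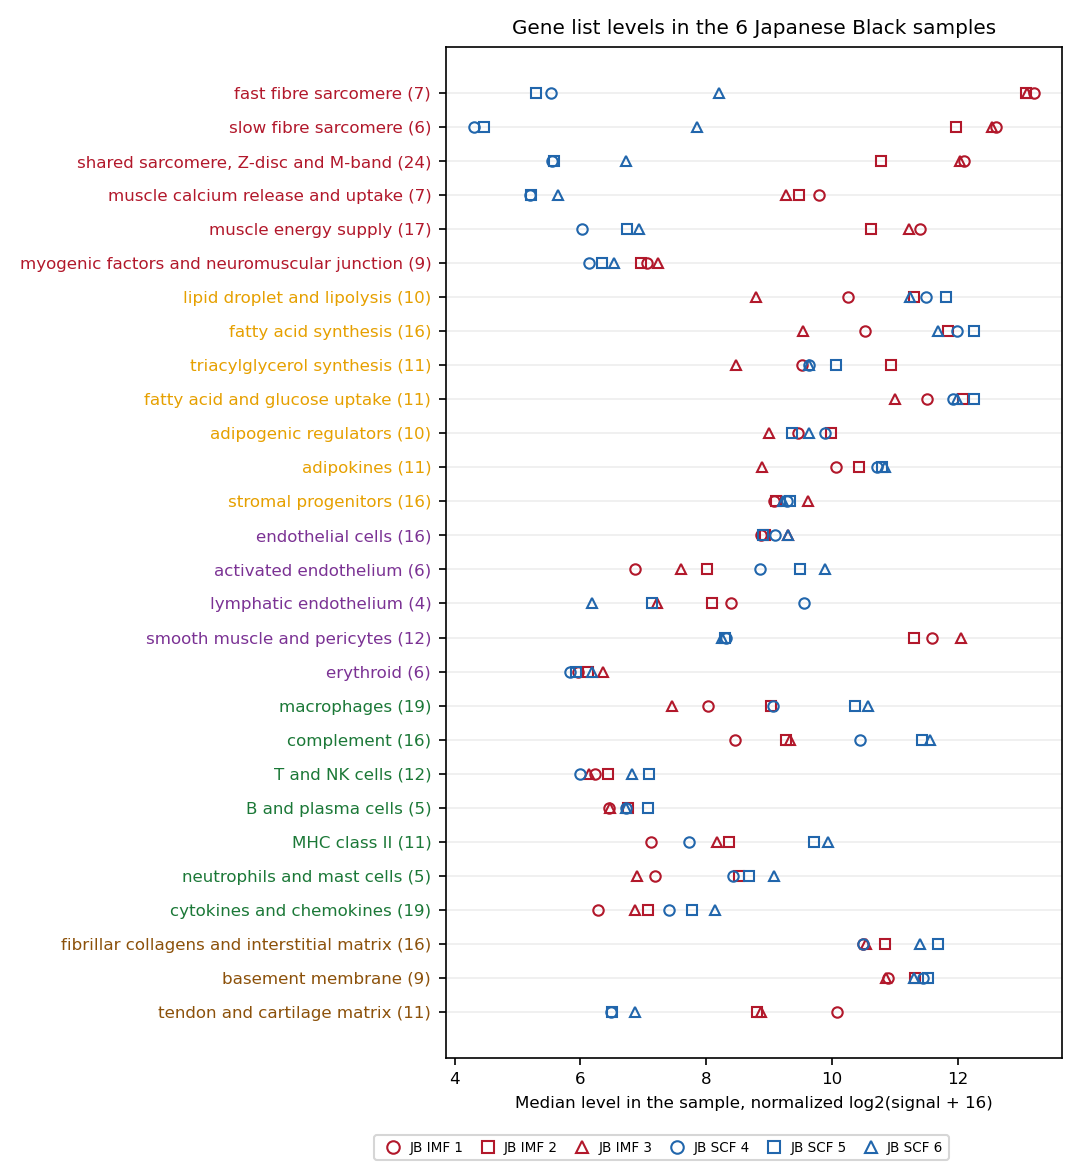
Median level of selected gene lists (normalized log2 of signal + 16, horizontal axis) in each of the 6 Japanese Black samples, 1 point per sample. The slow fibre list lies at 11.97 to 12.61 in IMF and at 4.31 to 7.86 in SCF, and IMF 2 has the highest macrophage and fatty acid synthesis medians of the 3 IMF samples.

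Many enzymes exist in a muscle form and in a form used by other tissues, so that transcripts of fibres can be set beside those of the same enzyme elsewhere. In 15 such pairs both genes were tested, and in 10 the muscle form was called higher. In none of those 10 was the other form called. The pairs were PGAM2 and PGAM1 (phosphoglycerate mutase) at 6.49 and −0.82, FBP2 and FBP1 (fructose bisphosphatase) at 5.95 and −0.62, and ENO3 and ENO1 (enolase) at 5.24 and −0.77. PFKM and PFKL (phosphofructokinase) differed by 4.58 and −0.61, and COX6A2 and COX6A1 (a subunit of cytochrome oxidase) by 4.61 and −0.77. PYGM, muscle glycogen phosphorylase, differed by 5.88 ± 1.24 and PYGL, the liver form, by −0.12. The call for PYGM was lost when any 1 JB sample other than IMF 2 was left out. It was also lost with a pseudocount of 1, and its adjusted p-values reached 0.112. In HS SCF, which shares the estimate of spread, PYGM gave 10.5, 1724 and 7.85. The sarcoglycans SGCA and SGCE were at 2.83 and 0.13, and the adenylosuccinate synthases ADSS1 and ADSS2 at 2.24 and −0.43. The call for ADSS1 was lost without IMF 1, IMF 3, SCF 4 or SCF 5, with adjusted p-values up to 0.076.

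The remaining pairs of those 10 belong to lipid metabolism. FABP3, the fatty acid carrier of heart and muscle, differed by 3.89 ± 0.63 and FABP4, that of adipocytes, by −0.21 ± 0.22. ACACB, the acetyl-CoA carboxylase that restrains fatty acid oxidation in muscle, differed by 3.94 ± 0.44 (adjusted p = 3.07e-04), while ACACA, the carboxylase of fatty acid synthesis, differed by −1.32 ± 0.56 (adjusted p = 0.328). In the other 5 pairs the muscle form was not called: ACTA1, COX7A1 (difference 1.83, adjusted p = 0.0526), SLC25A4 (1.62, adjusted p = 0.12), LDHA (0.97) and CKM, muscle creatine kinase (0.18 through its brightest probe set and 6.95 through another, which was called).

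**Figure D3:**
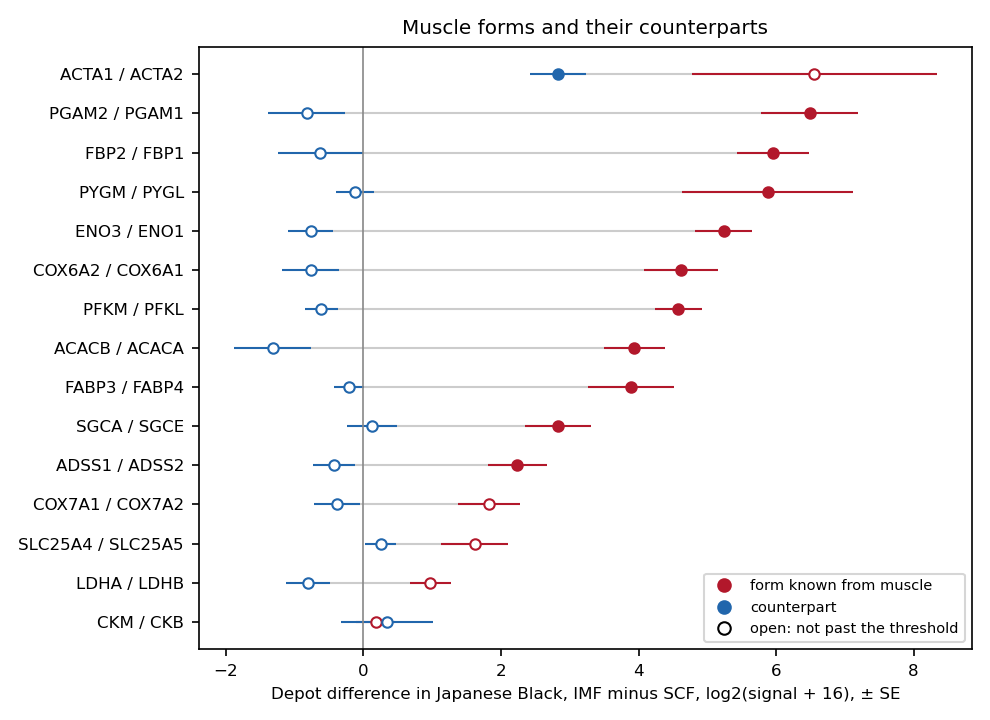
Depot difference in Japanese Black (IMF minus SCF, log2 of signal + 16, with SE) of the muscle form and the other form of each pair of genes. In the 10 pairs whose muscle form was called, it lies between 2.24 and 6.49 and the other form between −1.32 and 0.13.

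Genes on no muscle fibre list were also among the increases: 142 named genes of the 199. The largest was CA3, carbonic anhydrase III, an enzyme abundant in slow muscle, with signals of 11323, 5183 and 9139 in IMF and 18.5, 10.99 and 201 in SCF and a difference of 7.07 ± 0.70, or 134-fold. PPP1R27, a regulatory subunit of protein phosphatase 1, differed by 6.19. SYNPO, synaptopodin, an actin-binding protein, differed by 5.24 through 1 probe set and by 0.93 through the brightest of its probe sets. Next came DUSP26, a dual-specificity phosphatase (5.20), ADCY2, an adenylyl cyclase (4.96), ASB12, an ankyrin repeat and SOCS box protein (4.96), and TNC, taken up with the matrix. PDE4DIP, an anchor of phosphodiesterase 4, differed by 5.42 through 1 probe set and by −0.99 through the brightest. Other increases, named after their values were seen, included well-known muscle genes that the lists had left out: DES, desmin, the intermediate filament of muscle cells, with signals of 9543, 5727 and 11008 in IMF and 359, 210.4 and 297 in SCF (difference 4.89 ± 0.51), APOBEC2 (4.62), RBM24, a splicing regulator of muscle (4.67), and EEF1A2, the translation elongation factor of muscle and neurons (3.85). The depots did not overlap in any of these, which holds for all 516 called probe sets.

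The list of smooth muscle and pericyte genes also held calls higher in IMF. Of its 12 genes tested, 8 were called higher and none lower, with a median difference of 2.79. Whether these transcripts came from vessels was not tested. MYH11, the smooth muscle myosin heavy chain, gave 13091, 7041 and 16826 in IMF and 757, 418 and 702 in SCF (difference 4.40 ± 0.56, adjusted p = 8.62e-04). CNN1, calponin, differed by 3.84 ± 0.46, SMTN, smoothelin, by 3.18 ± 0.41 and ACTA2, smooth muscle actin, by 2.83 ± 0.41. RGS5, a regulator of G-protein signalling and a marker of pericytes that was named after its values were seen, gave 2932, 1529 and 5349 in IMF and 191, 274 and 224 in SCF (difference 3.65 ± 0.85, adjusted p = 0.0387). The further pericyte genes CSPG4, MCAM and KCNJ8 were not called, at 1.14, −0.77 and −0.15. The summed signal of the 12 was 59275, 40812 and 74994 in IMF and 13933, 12965 and 18691 in SCF, and it was lowest among the IMF samples in IMF 2, as the skeletal muscle sum was. Whether the skeletal muscle transcripts had a part in this was not tested. Without IMF 1, IMF 3, SCF 4, SCF 5 or SCF 6, 5 of the 12 were called.

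Endothelial genes gave no such calls. None of 16 endothelial genes was called, and their median difference was −0.22. PECAM1 and CDH5, the junction proteins that define endothelium, differed by −0.15 ± 0.37 and −0.42 ± 0.27. Their list summed to 11755, 12317 and 19373 in IMF and 15189, 14919 and 18537 in SCF. Of a list for activated endothelium and leukocyte adhesion, 6 genes were tested. All 6 differences were negative (median −1.30) and 1 was called. That gene was SELE, E-selectin, which endothelium displays on inflammatory stimulation to capture leukocytes. Its signals were 35.3, 39.9 and 81.8 in IMF and 4492, 7051 and 8802 in SCF, so every SCF sample lay far above every IMF sample, and the difference of −6.53 ± 1.09 (adjusted p = 0.00571) was the largest decrease of all named genes. The related SELP, P-selectin, differed by −0.98 ± 0.31 (adjusted p = 0.138), VCAM1 by −1.86 ± 0.61 (adjusted p = 0.161), ICAM1 by −1.11 and ACKR1, a chemokine-binding receptor of venules, by −1.49.

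The fat genes differed little beside these groups, and few were called in the unweighted fit of all samples. Of 85 tested, 1 was called higher and 2 lower, which is close to the background of all named genes, and the median difference was −0.60, with 62 of 85 negative, beside 4765 of 7808 over all named genes. The summed signal of the 85 was 191120, 239783 and 120254 in IMF and 293380, 304639 and 243938 in SCF. IMF 3 lay lowest and IMF 2 came within a short distance of SCF 6. Without IMF 2, 10 fat genes were called lower and 1 higher. Without any 1 of the other JB samples, at most 1 was called lower and none higher. With array weights 33 of the 85 were called lower and 10 higher, beside 2432 and 1908 of all 16811 probe sets.

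Both called decreases were secreted proteins of adipocytes. ANGPTL4, an inhibitor of lipoprotein lipase that responds to fasting, gave 373, 588 and 306 in IMF and 1944, 1425 and 2214 in SCF (difference −2.11 ± 0.44, adjusted p = 0.023). CFD, the complement protease adipsin, gave 358, 1072 and 416 in IMF and 1593, 4088 and 2444 in SCF (difference −2.15 ± 0.52, adjusted p = 0.0472). CFD is also on the complement list, so its call counts among both the fat and the immune decreases. The increase was DLK1, which marks preadipocytes and inhibits their differentiation, and which is also known from the enlarged muscle of callipyge sheep. Its signals were 365, 85.5 and 156 in IMF and 6.25, 14.4 and 7.35 in SCF (difference 2.84 ± 0.69, adjusted p = 0.0459). The depots did not overlap in these 3 genes, which holds for all 516 called probe sets, and their calls were not stable. ANGPTL4 and DLK1 lost theirs when any 1 JB sample other than IMF 2 was left out, with adjusted p-values up to 0.137 and 0.219. CFD lost its call without IMF 1, IMF 3, SCF 5 or SCF 6, with adjusted p-values up to 0.235. CFD and DLK1 also lost it with no filter on dim probe sets and against a 1.2-fold change, and CFD with values as deposited, a pseudocount of 1 and without HS IMF 3, so that CFD passed in 8 of 17 alternatives and DLK1 in 9 of 16.

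Genes of fatty acid synthesis leaned towards SCF without a single call. Of 16 tested, 15 differences were negative, and the median was −0.87. The following members, named after their values were seen, are the best-known of the lists. FASN, fatty acid synthase, gave 6846, 8755 and 1851 in IMF and 10671, 10381 and 6105 in SCF (difference −0.85 ± 0.47, adjusted p = 0.497). IMF 1 and IMF 2 fell among the SCF samples there and IMF 3 lay below them all. SCD, the Δ9 desaturase that makes oleate, differed by −0.83 ± 0.30 (adjusted p = 0.219). Without IMF 2, 6 of the 16 were called lower, and without any other JB sample none was.

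Lipid droplet proteins and lipases had a median difference of −0.96, with 8 of 10 negative and none called. CIDEC, which enlarges droplets, differed by −0.95 ± 0.42 and LIPE, hormone-sensitive lipase, by −0.96 ± 0.42. The 11 genes of triacylglycerol assembly had a median of −0.60, the 11 of fatty acid and glucose uptake a median of −0.19 and the 10 adipogenic regulators a median of −0.23, again with no call. PPARG, the master regulator of adipocyte differentiation, differed by −1.12 ± 0.64 (adjusted p = 0.519). ADIPOQ, adiponectin, gave 1152, 2303 and 214 in IMF and 2678, 1959 and 2415 in SCF (difference −1.43 ± 0.77, adjusted p = 0.475), with IMF 2 inside the SCF range and IMF 1 and IMF 3 below it. LEP, leptin, differed by −0.64 ± 0.45. Of 16 genes of stromal progenitors, DLK1 alone was called, and PDGFRA, the growth factor receptor that marks these cells, differed by −0.77 ± 0.30.

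The immune lists held calls in 1 direction, from macrophage, complement and cytokine genes. Of 87 tested, 23 were called lower and none higher, against a background of 1.28%, and 80 of the 87 differences were negative, beside 4765 of 7808 over all named genes (median −1.38). Their summed signal was 30360, 53204 and 35377 in IMF and 84453, 153594 and 150401 in SCF, so IMF 2 was again nearest to SCF and SCF 4 was the lowest of the SCF samples. The count of lower genes was 29 without IMF 2 and 30 without SCF 4, but 8 without IMF 1, 7 without IMF 3, 9 without SCF 5 and 8 without SCF 6. With array weights it was 60, beside 2432 of all 16811 probe sets. The muscle sums given above moved with the depot in the same samples, and their part in these decreases was not tested.

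Macrophage genes stood out. All 19 differences were negative, with a median of −1.89, and 9 were called. CD14, the co-receptor for bacterial lipopolysaccharide, gave 572, 523 and 238 in IMF and 2123, 2247 and 2559 in SCF (difference −2.40 ± 0.38, adjusted p = 0.00397). C1QA, a chain of complement C1q made mainly by macrophages, gave 1199, 1673 and 496 in IMF and 4838, 11447 and 7257 in SCF (difference −2.82 ± 0.47, adjusted p = 0.00521). The other C1q chains moved in parallel, with C1QC at −2.98 ± 0.47 and C1QB at −2.78 ± 0.53. FCN1, ficolin 1, a lectin of monocytes, gave 19.6, 9.49 and 0.03 in IMF and 176, 491 and 192 in SCF (difference −3.35 ± 0.72, adjusted p = 0.0249), and VSIG4, a complement receptor of resident macrophages, differed by −2.96 ± 0.65. CD68 and CSF1R, widely used markers of the lineage and named after their values were seen, differed by −2.36 ± 0.66 and −1.61 ± 0.42 and were not called (adjusted p = 0.0911 and 0.0627). Without IMF 1, IMF 3, SCF 5 or SCF 6, 3 of the 19 were called, without IMF 2 15, and without SCF 4 12.

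The complement list had 6 of 16 genes called lower (median −1.43), with 15 of 16 negative. CFB, factor B of the alternative pathway, gave 259, 1348 and 568 in IMF and 3082, 7897 and 10192 in SCF (difference −3.31 ± 0.61, adjusted p = 0.0106). C2 differed by −2.17 ± 0.42, CFP, properdin, by −2.03 ± 0.42 and C1R, a protease of the classical pathway, by −1.52 ± 0.32. C1R was not called when the 6 JB samples were fitted alone. None of the 16 was called without IMF 1, IMF 3, SCF 5 or SCF 6, and 6 and 7 were called without IMF 2 and SCF 4.

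Of 19 cytokines and chemokines, 8 were called lower (median −1.34). IL6, interleukin 6, gave 40.8, 119.5 and 148 in IMF and 1014, 915 and 1217 in SCF, a tight SCF group well above IMF (difference −3.19 ± 0.41, adjusted p = 9.53e-04). GRO1, a neutrophil-attracting CXC chemokine, gave 355, 746 and 403 in IMF and 5000, 3901 and 3537 in SCF (difference −3.03 ± 0.53). CCL8, a monocyte attractant, differed by −2.65 ± 0.41 and CXCL12, a chemokine of stromal cells, by −1.81 ± 0.25. Not all inflammatory cytokines took part. TNF differed by 0.03 ± 0.37 and IL1B by −0.05 ± 0.47, and neither was called; both were named after their values were seen. The number called was 4 to 7 when any 1 JB sample was left out, with 4 without IMF 3 and 5 without IMF 1 or SCF 6.

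Lymphocyte, antigen presentation and granulocyte lists gave no calls in the unweighted fit of all samples. With array weights 60 of the 87 immune genes were called lower. That is more than the macrophage, complement and cytokine lists hold, so it includes members of the lymphocyte, antigen presentation or granulocyte lists. Without SCF 4, 3 MHC class II genes and 2 T and NK cell genes were called lower, without IMF 2, 1 neutrophil and mast cell gene was, and with the 6 JB samples fitted alone, 2 B and plasma cell genes and 1 neutrophil and mast cell gene were. All 11 differences of MHC class II genes were negative (median −1.21), but the depots overlapped, since IMF 2 and IMF 3 lay above SCF 4 in the median level of the list. The list's median level was 7.12, 8.36 and 8.17 in IMF and 7.73, 9.72 and 9.93 in SCF. The medians were −0.40 for 12 T and NK cell genes, −0.60 for 5 B and plasma cell genes (from −2.67 to −0.35 over the alternative settings) and −1.22 for 5 neutrophil and mast cell genes.

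**Figure D4:**
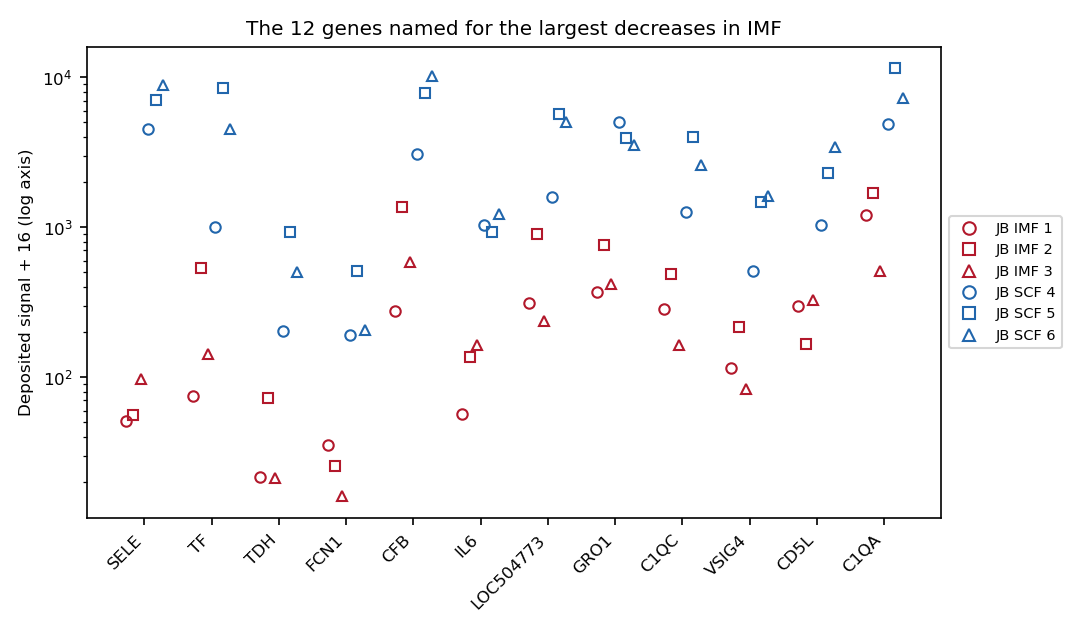
Signal of the 12 largest decreases in each of the 6 Japanese Black samples (deposited signal + 16, log axis), 1 point per sample. SELE lies at signals of 35.28 to 81.82 in IMF and of 4492 to 8802 in SCF. The genes were chosen among those whose depots do not overlap, so the lack of overlap is set by the choice.

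The rest of the 12 largest decreases lay off the immune lists. TF, transferrin, the iron carrier of plasma, gave 58.5, 523 and 127 in IMF and 986, 8474 and 4508 in SCF (difference −4.14 ± 0.87, adjusted p = 0.0228), with a wide spread within each depot. TDH, L-threonine dehydrogenase, differed by −3.71 ± 0.75. The gene carried as LOC504773 differed by −3.12 ± 0.60 and CD5L, a protein secreted by macrophages, by −2.94 ± 0.57. Of the 12, SELE, IL6, GRO1, C1QC and C1QA were called with each of the 6 samples left out and in each of the other settings tried. The remaining 7, TF, TDH, FCN1, CFB, LOC504773, VSIG4 and CD5L, lost their call without IMF 1, IMF 3, SCF 5 or SCF 6, with adjusted p-values from 0.0584 for CFB to 0.174 for VSIG4 at the highest. Further decreases named after their values were seen were LBP, which binds lipopolysaccharide (−2.81 ± 0.66), APOE, an apolipoprotein made by macrophages and adipocytes (−2.44 ± 0.48), FABP7 (−2.55 ± 0.43) and TLR2, a receptor for bacterial lipoproteins (−1.87 ± 0.35).

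Matrix genes did not move as 1 group. Of 11 tendon and cartilage matrix genes, 4 were called higher (median 1.43). TNC, tenascin C, gave 6362, 2641 and 5315 in IMF and 221, 82.6 and 117 in SCF (difference 4.96 ± 0.67, adjusted p = 0.00134), although another of its probe sets differed by −0.11. THBS4, a thrombospondin of tendon and muscle, gave 10216, 4912 and 3469.6 in IMF and 256, 191 and 334 in SCF (difference 4.47 ± 0.47, adjusted p = 2.04e-04). COMP, cartilage oligomeric matrix protein, differed by 3.86 ± 0.81 and TNMD, tenomodulin, which marks tendon cells and is also found in fat, by 3.43 ± 0.73. When any 1 JB sample other than IMF 2 was left out, 2 of the 11 were called. The 16 fibrillar collagens and their partners had a median of −0.62 and no call, and the 9 basement membrane genes a median of −0.34 and no call. COL1A1, the chain of type I collagen, differed by −1.61 ± 0.67 (adjusted p = 0.306) and was named after its value was seen.

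Markers of nerve and skin were examined because dissected depots may carry both. Of 6 Schwann cell genes, 2 were called lower. MBP, myelin basic protein, gave 108, 101 and 74.96 in IMF and 290.1, 387 and 349.7 in SCF (difference −1.60 ± 0.28, adjusted p = 0.0083) and another of its probe sets differed by 0.28. S100B, a calcium-binding protein of glia and also of adipocytes, differed by −1.23 ± 0.28 (adjusted p = 0.0387). MBP lost its call without IMF 3 or SCF 5 (adjusted p up to 0.0585). S100B lost its call when any 1 JB sample other than IMF 2 was left out, with a pseudocount of 1 and against a 1.2-fold change (up to 0.225). SOX10 and NGFR were not called, at −0.14 and 0.17. The 5 skin genes gave no call and a summed signal of 657, 1100.2 and 494 in IMF and 1133, 1666 and 1181 in SCF.

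Energy and housekeeping lists had small median differences. The 30 respiratory chain genes had a median of 0.07 with no call, a median whose sign turned with array weights, without IMF 2 and without SCF 6. The 14 genes of fatty acid oxidation had a median of −0.42 and the 22 ribosomal protein genes a median of −0.07, also with no call. In the citrate cycle 12 of 13 differences were positive, with a median of 0.22, and 1 was called, IDH2, mitochondrial isocitrate dehydrogenase, at 1.46 ± 0.35 (adjusted p = 0.0438). That call was lost when any 1 JB sample other than IMF 2 was left out. It was also lost with values as deposited, a pseudocount of 1 and against a 1.2-fold change, with adjusted p-values up to 0.241.

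Of 17 heat shock genes and chaperones, 4 were called higher (median 0.25). HSPA1A, the inducible HSP70, gave 9428, 5836 and 8747 in IMF and 2877, 2032 and 3199.6 in SCF (difference 1.58 ± 0.35), though its other probe sets differed by −0.24 and −0.45. CRYAB, αB-crystallin, a small heat shock protein that binds desmin, differed by 2.83 ± 0.52, HSPB8 by 2.14 ± 0.46 and DNAJB1, a co-chaperone of HSP70, by 1.73 ± 0.37. HSPA1A and DNAJB1 were not called against a 1.2-fold change. Without IMF 2, 4 were called, without SCF 5 2, without IMF 3 or SCF 4 1, and without IMF 1 or SCF 6 none. The 16 immediate early genes, which respond to handling of tissue, had a median of −0.62 and no call. All 8 iron-handling differences were negative, and TF alone was called. Of 15 homeobox and T-box genes, which carry positional identity, 1 was called, DLX5, with a difference of −1.29 ± 0.26 (adjusted p = 0.019). Its call was lost when any 1 JB sample other than IMF 2 was left out, with adjusted p-values up to 0.12.

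The depot difference of Japanese Black was then set beside that of Holstein, whose arrays are separate. Of the 362 probe sets higher in JB IMF, 359 were also positive in HS, and of the 154 lower, 151 were also negative, against 70.6% of all tested probe sets with the same sign in both breeds. In all, 295 were called in both breeds in the same direction, which is 57.2% of the JB calls and 52.9% of the 558 HS calls. Both contrasts use the same estimate of spread for each probe set, so the calls of the breeds are not independent. The muscle fibre median was 4.67 in JB and 4.57 in HS, that of smooth muscle 2.79 and 1.66, that of macrophages −1.89 and −1.76 and that of cytokines −1.34 and −0.43. The HS samples varied more, with a median SD of 0.523 in IMF and 0.347 in SCF against 0.233 and 0.222 in JB.

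A test of the difference between the breeds called no probe set. The lowest adjusted p by limma was 0.4, and 359 of the 16811 had an unadjusted p below 0.05, where 840.6 would be reached with no difference at all. The smallest p-value was that of a probe set of PDE4DIP, with signals of 361, 356 and 817 in IMF and 54.4, 54.1 and 59.6 in SCF in JB and a difference in JB minus that in HS of 2.69 ± 0.41 (adjusted p = 0.4). AMIGO2, a neuronal adhesion protein, differed by 2.18 ± 0.55 and MME, neprilysin, a membrane peptidase, by 2.31 ± 0.64 in the same contrast, and ZFP36, which promotes decay of cytokine mRNA, by −1.68 ± 0.44, each with an adjusted p of 0.99.

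Some of the JB calls were small or absent in HS by their values. SELE differed by −1.17 in HS, where its signals were 36.9, 147 and 22.02 in IMF and 1698, 45.2 and 28.4 in SCF, so that 1 HS SCF sample, SCF 4, was high. The JB minus HS contrast was −5.36 ± 1.55 (unadjusted p = 0.00467, adjusted p = 0.99 by limma). IL6 differed by −1.42 in HS (contrast −1.77 ± 0.58, adjusted p = 0.99) and RGS5 by −0.19 (contrast 3.84 ± 1.201, adjusted p = 0.99). RGS5 was also 1 of the 3 JB increases with a negative value in HS, and TRIB1 1 of the 3 decreases with a positive one. TF was at −4.80 in HS against −4.14 in JB. Without HS SCF 4 the contrast was called for SELE, at −7.07 with an adjusted p of 0.0233 by limma, and in no other setting. Leaving out the 1 high HS SCF sample moves the contrast this way by itself, so that fit cannot decide whether the breeds differ. Without HS IMF 2 the contrast was called for 1 unnamed probe set.

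**Figure D5:**
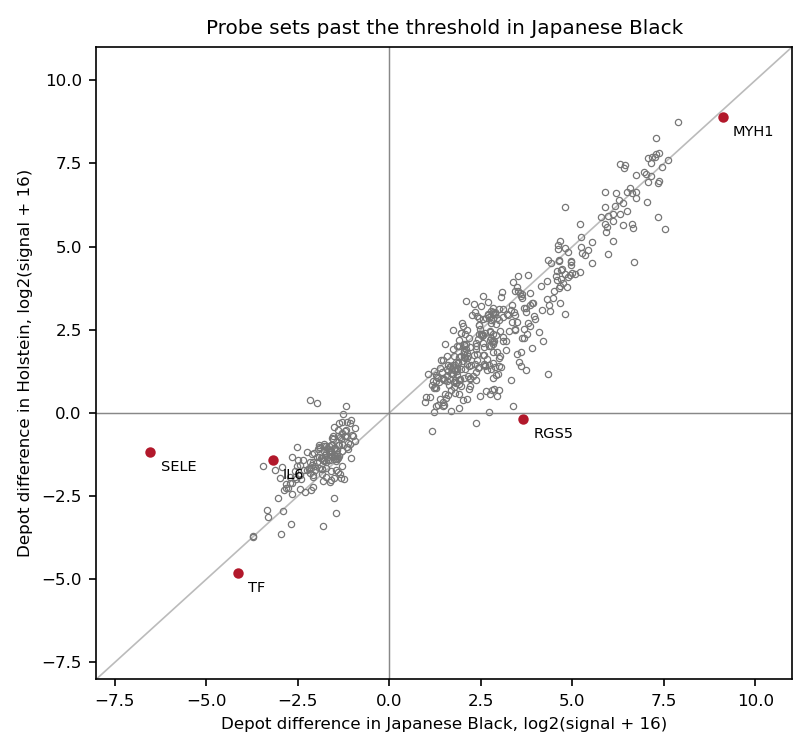
Depot difference (IMF minus SCF, log2 of signal + 16) of the 516 probe sets called in Japanese Black, with that breed on the horizontal axis and Holstein on the vertical axis, 1 point per probe set. Of the 362 on the right, 359 lie above 0 in Holstein, and SELE, at −6.53 and −1.17, is labelled with RGS5, IL6, TF and MYH1.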

How the data were processed

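Total RNA of 12 fat samples was hybridised to Affymetrix bovine arrays, 1 array per sample, of which the 6 of Japanese Black steers are described. The authors deposited linear intensities per probe set, made with GCOS 1.1.1 and Affymetrix Expression Console 1.1, per the submitters' processing notes; how probe sets were summarised is not given in the sources used here. Precision is limited by the number of arrays.

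The intensities were put on a log2(signal + 16) scale and quantile normalized over all 24128 probe sets. The 112 control probe sets and then the 30% of the rest with the lowest mean were left out, which left 16811. Groups were compared with limma 3.58.1 in R 4.3.3, with 1 mean for each of 4 groups over 12 samples (8 residual degrees of freedom), a contrast within Japanese Black and its difference from that in Holstein, and Benjamini-Hochberg adjusted p-values below 0.05 as calls. This code was tested on simulated data. Of the 24016 probe sets, 13292 have 1 gene symbol in the platform annotation, 86 have several and 10638 have none. In counts and medians of lists, a gene is represented by its brightest probe set. The genes named for the largest increases and decreases are shown through the called probe set that changed most, so these values were chosen by their size.

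The members and gene lists were chosen with earlier results of these data known. Genes named are, among called probe sets with 1 symbol whose depots do not overlap, the 8 largest increases on the muscle lists, the 8 largest on none and the 12 largest decreases; from each list with a call, at most 4 members, ranked by p; both members of each isoform pair; and the 5 smallest p-values in each direction between breeds. Others are said to be named after their values were seen. Alternatives covered filter, normalization, pseudocount, variance model, array weights, probe set choice and samples left out.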

Additional observations from a re-analysis of the deposited data

Results flagged for a closer look

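For 3 probe sets named in the comparison of the breeds, every Japanese Black sample differed between the depots in one direction and every Holstein sample in the other. NDUFS3, a subunit of respiratory complex I, had a depot difference in JB minus that in HS of 1.86. MARCKSL1, an actin-binding protein of the membrane, had −2.24 and RGS16, a regulator of G-protein signalling, had −1.77. The test of this difference did not pass for any of them, with adjusted p-values of 0.92 to 0.99 by limma. The same pattern was met by 35 of all 16811 tested probe sets.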

How the results depend on the processing

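In Japanese Black, 516 probe sets were called, 362 higher and 154 lower. Leaving out 1 JB sample at a time gave 218 to 712 calls, 182 to 449 higher and 36 to 263 lower. The calls numbered 1039 (680 higher, 359 lower) with only the JB samples normalized and fitted, of which 496 were among the 516. They numbered 4340 (1908 higher, 2432 lower) with array weights, which include all 516. With 1 probe set per gene, where fewer are tested, 322 were called, 200 of them higher. Tested against a 1.2-fold change over all 16811 probe sets, 367 were called, 278 higher and 89 lower. The cause of the changes with the fitted samples and with array weights was not tested. The other settings (filter, values as deposited, median centring, pseudocount, variance model, without HS IMF 3) gave 429 to 671 calls. All 16 genes named for the largest increases kept their call in each setting that tested their probe set.

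Among named genes, none that was called changed sign in any setting. Uncalled genes did: with array weights PYGL was at 0.060 and CKB at −0.58, CKM ranged from −0.031 to 0.44 and CKB from −0.30 to 0.95 over the samples left out. The cause was not tested.

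For the difference between breeds, 0 probe sets were called, and leaving out each sample in turn gave 0 to 1. With the replicate block, the replicate number as a term of that fit, 0 were called. Same-numbered samples of the breeds correlated at −0.28 to 0.12 in their deviations from the group means. With so few samples per group, these values cannot show whether the numbers mark a pairing. No paired analysis was possible within Japanese Black because its IMF and SCF samples share no replicate numbers. Signals near 0 limit the size of the largest differences, which depend on the pseudocount.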
